A study of Homo sapiens with 6 samples.

Results

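The genes described here code for proteins of the tight junction, and they are CLDN1, CLDN3, CLDN4, CLDN7, CLDN12, OCLN, TJP1, TJP3, and F11R. All probes that the array files assign to these 9 of 36337 gene names were taken, which gave 14 of 50599 probes. They were measured on 6 single-color microarrays in HSC-3, KON, and Ca9-22, which are established cell lines from oral squamous cell carcinoma (OSCC), a cancer of the lining of the mouth. Each line was transfected with siDLEU1-2, a small interfering RNA (siRNA) against the long noncoding RNA DLEU1, or with a control siRNA (siCtrl), both with the same lipid reagent, and total RNA was taken after 72 h. There was 1 array for each line and siRNA, so the 3 lines are the only replicates, and nothing in the labels speaks of repeated cultures of a line. The comparison asks which genes follow the level of DLEU1. Since 1 siRNA against DLEU1 was put on arrays, changes caused by its sequence cannot be told apart from changes caused by the loss of DLEU1.

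Tight junctions seal the space between neighboring epithelial cells near their apical side. Claudins span the membrane and pair with claudins of the next cell, and the set of claudins in a cell decides how tight the seal is and which ions pass. Occludin (OCLN) and the junctional adhesion molecule A (F11R) are further membrane proteins of the junction, and the zonula occludens proteins, among them TJP1 and TJP3, tie these to the actin cytoskeleton. In squamous epithelium, tight junctions lie in the upper layers, and carcinoma cells often lose or displace their components when they become migratory.

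The siRNA strands are shown because every comparison rests on this duplex. Capitals mark the seed, bases 2 to 8 of the antisense strand.
siDLEU1-2 sense: cagggguuaucgcacuuaagc
siDLEU1-2 antisense: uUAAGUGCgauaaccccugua
The heptamer that pairs with this seed, GCACTTA, was in 0 of the 14 tight junction probes of 60 bases, and in 57 of the 19956 probes that were kept for testing. The probes cover a small part of each transcript, so this says nothing of the remaining sequence.

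The values given below are the processed signals of the scanner software, which are intensities on a linear scale without normalization between arrays. The 75th percentile of the signal lay between 200 and 257 on the 6 arrays, and 43.0% to 45.7% of the probes were well above background. Fold changes were taken after the log2 signal of each array had been centered on its 75th percentile, so they differ a little from the quotient of the signals. Probes were kept if each line had at least 1 array with a signal well above background, and limma was fitted to the 19956 probes kept, with the line as block and Benjamini-Hochberg adjustment. The probe of DLEU1 itself read 571 and 30.7 for HSC-3, 1145 and 87.8 for KON, and 741 and 66.0 for Ca9-22, siCtrl first, and was 10.8-fold to 17.1-fold lower after siDLEU1-2 over the lines (adjusted p = 0.0227 from limma). Signals of different probes cannot be set against each other, and only arrays are compared within a probe.

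Of the 9 genes, 8 had a probe that passed the filter on dim probes, with 11 probes in all. TJP3 passed it in KON and Ca9-22 through the siDLEU1-2 array alone. limma called 7 of the 11 probes higher after siDLEU1-2, where 3.98% of all probes kept were called higher, and 0 lower, where 4.52% of all were. The 7 probes belong to CLDN4, CLDN7, CLDN12, OCLN, TJP1, and TJP3. Over 2-fold higher in all 3 lines were 4 of the 11 probes, 1 each for CLDN4, CLDN12, OCLN, and TJP3, against 2.08% of all probes. Over 2-fold lower in all 3 lines were 0 of the 11, with 2.08% of all probes in that class as well. The median of the mean log2 fold changes was 1.02 over the 11 probes and 0.0073 over all probes kept. The 9 genes were chosen with earlier results of these data known, so these counts and shares describe the list and do not test it. The 7 calls rest on all 3 lines and on the pairing of the arrays by line. When HSC-3 was left out, 0 of the 11 were called (7 at an unadjusted p below 0.05, as were 4547 of the 19956), and when KON was left out, 0 (9 unadjusted, as were 4676 of the 19956). In both of these fits, 0 of all probes were called. When Ca9-22 was left out, 2 of the 11 were called higher, as were 127 of the 19956. These are the OCLN probes A_23_P92672, which is among the 7, and A_24_P102053, which is not. Without the block, limma called 0 (4 at an unadjusted p below 0.05, as were 1357 of the 19956). Centering on the median of each array left 4 calls, without CLDN4, TJP1, and A_21_P0000099 of CLDN7, with 639 of the 19956 called higher. A filter that asked for 3 of the 6 arrays left 3 of 12, those of CLDN12, OCLN, and TJP3, with 385 of 22328 called higher.

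**Figure D1:**
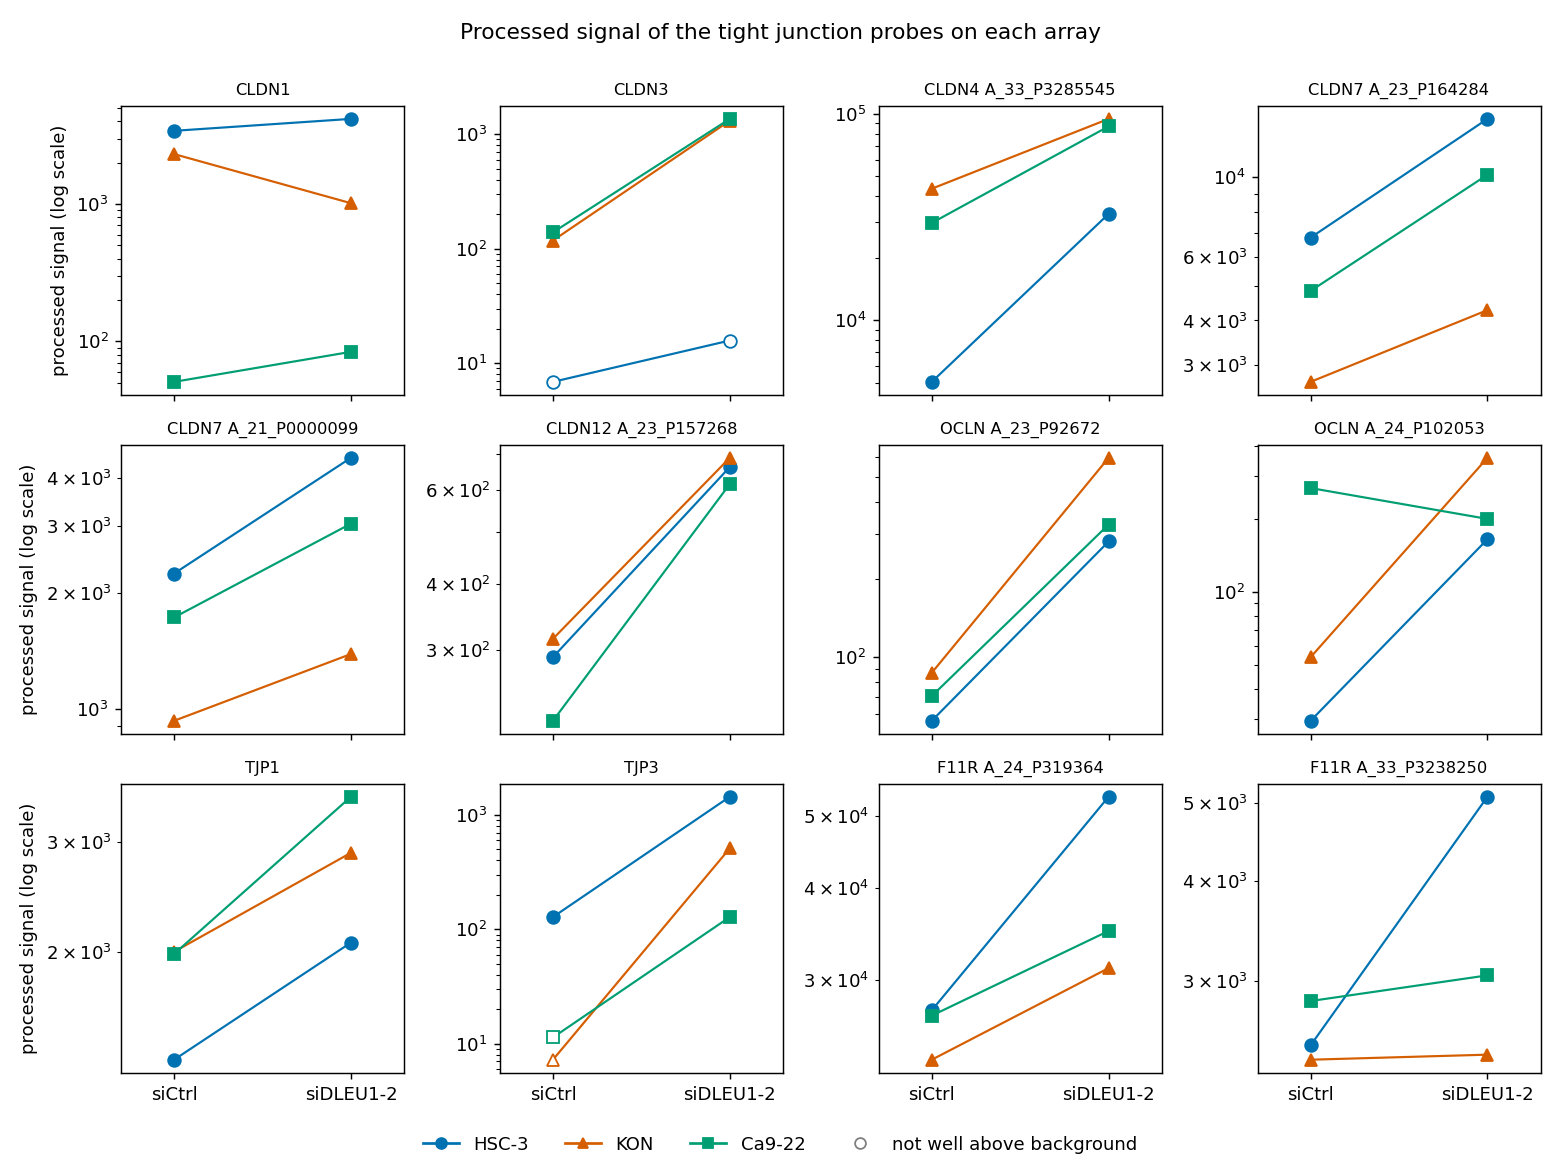
Processed signal (y axis, log scale, with its own range in each panel) of 12 tight junction probes after siCtrl and siDLEU1-2 (x axis). Each line joins both arrays of a cell line, and open symbols are arrays on which the probe was not well above background. CLDN4, CLDN7, CLDN12, TJP1, and TJP3 rise in all 3 lines, as does A_23_P92672 of OCLN, while CLDN1 is lower after siDLEU1-2 in KON and A_24_P102053 of OCLN is lower in Ca9-22.

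Among the claudins, CLDN4, CLDN7, and CLDN12 rose in all 3 lines, CLDN3 could only be compared in KON and Ca9-22, and CLDN1 was higher in 2 lines and lower in KON without a call. CLDN4 is a claudin that tightens the junction to sodium and is a receptor of a bacterial enterotoxin. Its probe A_33_P3285545, which the files place on chromosome 7 of hg19 from 73246907 to 73246966, was well above background throughout. The siCtrl array of HSC-3 read 5038 and its siDLEU1-2 array 32776, while KON went from 43401 to 94543 and Ca9-22 from 29636 to 86973. HSC-3 had by far the lowest signal after siCtrl, and its array after siDLEU1-2 was within the range of the other lines after siCtrl. The rise was thus 7.06-fold in HSC-3 against 2.29-fold in KON and 3.04-fold in Ca9-22, and the log2 fold change averaged 1.87 ± 0.85 (SD, n = 3 lines; adjusted p = 0.0469 from limma). Centered on the median of each array, the same probe had an adjusted p of 0.053, with 0.0298 to 0.19 over the alternatives of scaling, filter, and probe averaging. A second probe of CLDN4, A_33_P3378272, lies further upstream, from 73244259 to 73244318, and was not well above background on any array.

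CLDN3, a sealing claudin, is the neighbor of CLDN4 on chromosome 7, with 0 genes between them in the RefSeq table of GRCh38.p14. Its probe (chromosome 7 of hg19, 73183327 to 73183386) read 118 in KON after siCtrl and 1313 after siDLEU1-2, and Ca9-22 read 139 and 1361. In HSC-3 it read 6.88 and 15.8, not well above background on either array, so no fold is given there. The signal was thus 11.7-fold higher after siDLEU1-2 in KON and 10.1-fold higher in Ca9-22, on 1 pair of arrays each, and HSC-3 was the line with the lowest signal of CLDN3 as well as of CLDN4 after both siRNAs. Because HSC-3 failed the filter, CLDN3 was not tested. With a filter that asked for 3 of the 6 arrays, chosen after the data were seen, its adjusted p from limma was 0.0642, and without any filter it was 0.175.

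CLDN7, a claudin found along the whole lateral membrane of many epithelia, was measured by 2 probes that moved together. Probe A_23_P164284 spans 165 bases of chromosome 17 of hg19 (7163822 to 7163986, minus strand) with its 60 bases, so it reads across an intron, and it is shown for that reason.
CLDN7 probe A_23_P164284: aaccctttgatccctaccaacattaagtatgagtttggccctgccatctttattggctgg
HSC-3 went from 6795 to 14519, KON from 2701 to 4274, and Ca9-22 from 4832 to 10158. The order of the lines was the same after both siRNAs, with HSC-3 highest and KON lowest. A log2 fold change of 1.02 ± 0.25 was measured on average (SD, n = 3 lines; adjusted p = 0.0362 from limma), which is a 2.03-fold rise. The other probe, A_21_P0000099 (7163269 to 7163328), gave 2249 and 4505 for HSC-3, 929 and 1387 for KON, and 1728 and 3034 for Ca9-22. It has the same order of lines, and its log2 fold changes averaged 0.88 ± 0.24 (SD, n = 3 lines; adjusted p = 0.0454 from limma). KON was the line with the smallest rise at both probes, 1.66-fold and 1.57-fold, so neither passed the 2-fold threshold in all lines.

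CLDN12, a claudin without the C-terminal motif by which most claudins bind the scaffold proteins, changed by nearly the same amount in every line. Probe A_23_P157268 (chromosome 7 of hg19, 90044941 to 90045000) rose from 291 to 662 in HSC-3 cells, from 315 to 689 in KON cells, and from 221 to 615 in Ca9-22 cells. All 3 signals after siDLEU1-2 lay above all 3 after siCtrl. On average, the log2 fold change of 1.34 ± 0.17 (SD, n = 3 lines; adjusted p = 0.0247 from limma) is a 2.54-fold rise. The second probe of the gene, A_23_P412515 (90042478 to 90042537), was well above background on 1 array, HSC-3 after siDLEU1-2, where it was at least 2.14-fold higher than after siCtrl.

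CLDN1, which is needed for the barrier of the epidermis, had the widest spread between lines of the 4 claudins tested among the 9 genes. Its probe (chromosome 3 of hg19, 190024001 to 190024060) was well above background throughout, with 3417 (siCtrl) and 4175 (siDLEU1-2) for HSC-3, 2313 and 1015 for KON, and 50.7 and 83.9 for Ca9-22. The signal was 1.33-fold higher after siDLEU1-2 in HSC-3 and 1.71-fold higher in Ca9-22, but 2.17-fold lower in KON. The mean log2 fold change of 0.022 ± 1.0 (SD, n = 3 lines; adjusted p = 0.979 from limma) was not called, and whether the lines differ in their response could not be tested with 1 array for each line and siRNA.

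OCLN rose in all 3 lines at 1 of its probes, and the other probe was not called. Probe A_23_P92672 (chromosome 5 of hg19, 68849515 to 68849574) rose from 56.5 to 281 in HSC-3 cells, from 86.8 to 594 in KON cells, and from 70.5 to 327 in Ca9-22 cells. The 3 arrays after siDLEU1-2 lay well apart from the 3 after siCtrl. The fold changes were 5.39, 7.19, and 4.80 in these lines, and the mean log2 fold change of 2.51 ± 0.30 (SD, n = 3 lines) had an adjusted p of 0.0227 from limma. With normexp background correction, which shrinks the changes of dim probes, the mean was 1.84. Averaged over both OCLN probes, it was 2.10, which did not pass (adjusted p = 0.051). The adjusted p of A_23_P92672 was 0.012 to 0.331 over the alternatives, this average included.

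The second OCLN probe, A_24_P102053, is shown because it gave another picture in Ca9-22. Its 60 bases span 2044 bases of chromosome 5 of hg19 (68847386 to 68849429), and the files assign it to the OCLN transcripts and also to NR_026578, a noncoding RefSeq transcript that the probe A_23_P92672 does not list.
OCLN probe A_24_P102053: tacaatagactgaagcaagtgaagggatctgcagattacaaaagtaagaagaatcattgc
Its signal went from 29.5 to 165 in HSC-3 and from 53.9 to 357 in KON, differences of 6.08-fold and 6.96-fold that are close to those of A_23_P92672. In Ca9-22 it read 268 after siCtrl and 200 after siDLEU1-2, which is 1.29-fold lower. The siCtrl array of Ca9-22 was therefore the one that stood apart, above both other lines after siCtrl. Over all lines, the mean log2 fold change of 1.68 ± 1.78 (SD, n = 3 lines) was not called by limma (adjusted p = 0.19), and with normexp it was 0.97. It was 1.21 when HSC-3 was left out, 1.12 when KON was, and 2.70 when Ca9-22 was, the last with an adjusted p of 0.0467 (0.0467 to 0.941 over all alternatives). The share of this signal that comes from NR_026578 was not tested.

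F11R, an adhesion molecule of the immunoglobulin family that helps to place the junction, was not called at either of its probes. Probe A_24_P319364 (chromosome 1 of hg19, 160966033 to 160966092) gave 27298 and 53146 for HSC-3, 23397 and 31137 for KON, and 26849 and 34963 for Ca9-22, siCtrl first. All 3 lines were higher after siDLEU1-2, with HSC-3 over 2-fold and the other lines 1.40-fold and 1.35-fold. Averaged over lines, the log2 fold change was 0.66 ± 0.36 (SD, n = 3 lines; adjusted p = 0.099 from limma). Probe A_33_P3238250 (160967950 to 160968009) gave 2492 and 5097 for HSC-3, 2391 and 2426 for KON, and 2831 and 3048 for Ca9-22. The difference was 2.22-fold for HSC-3 but 1.07-fold for KON and 1.11-fold for Ca9-22, and its mean of 0.47 ± 0.59 (SD, n = 3 lines; adjusted p = 0.304 from limma) was smaller than the spread between lines.

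Of the scaffold proteins, TJP3 had the largest change of the 11 tight junction probes tested, also with dim arrays at the detection floor, and TJP1 a small and even one. TJP1 is the scaffold present at nearly all tight junctions. Its probe (chromosome 15 of hg19, 29992527 to 29992586) rose from 1343 to 2071 in HSC-3 cells, from 2002 to 2887 in KON cells, and from 1986 to 3552 in Ca9-22 cells. Every array after siDLEU1-2 was above every array after siCtrl, and the rise lay between 1.52-fold and 1.85-fold. Its mean log2 fold change of 0.74 ± 0.14 (SD, n = 3 lines; adjusted p = 0.0491 from limma) was just past the threshold, and with centering on the median of each array it was 0.67 (adjusted p = 0.0611, with 0.0285 to 0.204 over the alternatives of scaling, filter, and probe averaging).

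TJP3 is the zonula occludens protein whose expression is most restricted to epithelia. Its only probe (chromosome 19 of hg19, 3746516 to 3746575) is shown because it carries the largest change.
TJP3 probe A_23_P108157: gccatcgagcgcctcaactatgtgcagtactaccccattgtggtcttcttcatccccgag
HSC-3 read 128 after siCtrl and 1445 after siDLEU1-2, KON read 7.22 and 511, and Ca9-22 read 11.3 and 128. After siCtrl, the probe was well above background in HSC-3 alone, and after siDLEU1-2 it was so in all 3 lines. TJP3 thus rose by 12.2-fold in HSC-3 cells, by at least 30.1-fold in KON cells, and by at least 5.70-fold in Ca9-22 cells, where the bounds set the siCtrl array at the lowest signal among probes well above background on it. With the dim siCtrl arrays at this floor, the log2 fold changes averaged 3.68 (adjusted p = 0.0245 from limma, with 0.021 to 0.765 over all alternatives). The 4.46 ± 1.52 (SD, n = 3 lines; adjusted p = 0.0302 from limma) computed from the signals as they stand rests on the dim siCtrl values of KON and Ca9-22, lines in which the probe passed the filter by its siDLEU1-2 array, and with normexp background correction the mean was 2.54. In Ca9-22 the signal after siDLEU1-2 equaled that of HSC-3 after siCtrl.

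**Figure D2:**
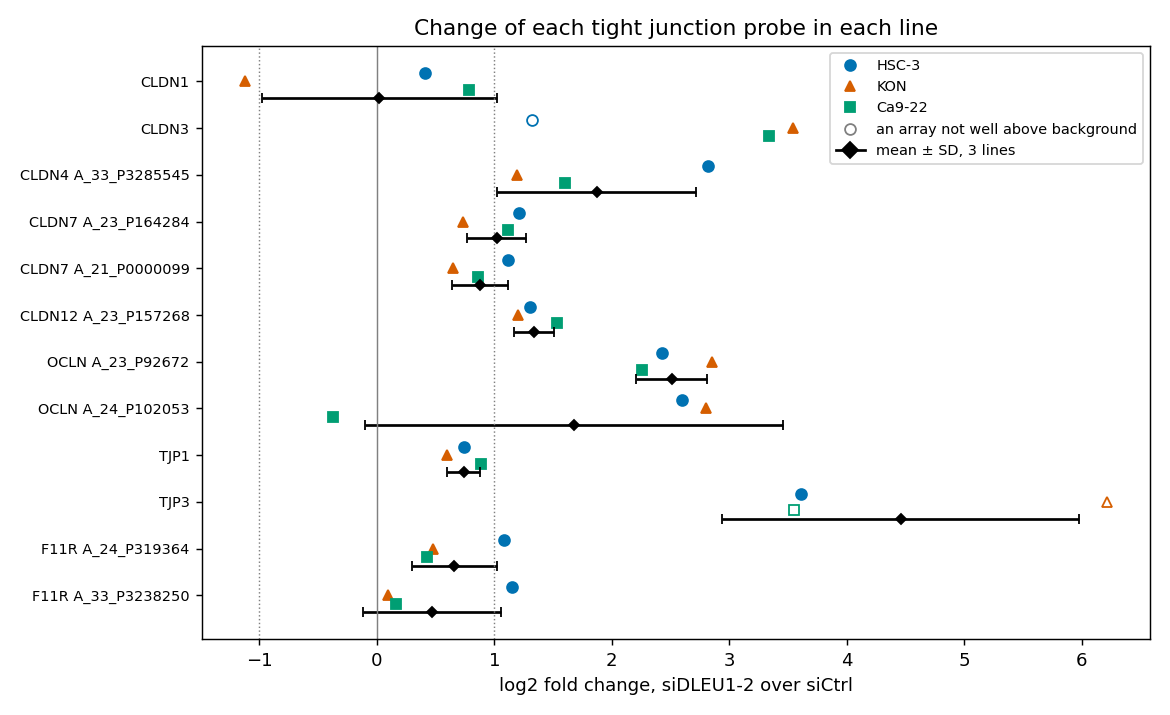
Log2 fold change of siDLEU1-2 over siCtrl (x axis) for each of 12 tight junction probes (y axis) in HSC-3, KON, and Ca9-22. Black diamonds with bars are the mean ± SD of the 3 lines for the 11 probes tested, open symbols mark lines in which an array was not well above background, and dotted lines mark 2-fold. TJP3 is plotted at its signals as they stand, with 3.68 as its mean at the detection floor, against 2.51 for A_23_P92672 of OCLN, CLDN12 and TJP1 have the smallest SDs at 0.17 and 0.14, and CLDN1 and A_24_P102053 of OCLN have lines on both sides of 0.

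The background correction mattered for the dim probes and hardly for the bright ones. For CLDN4, whose lowest signal was 5038, the mean log2 fold change was 1.87 with the processed signal and 1.86 with normexp. For TJP3 in KON, where the siCtrl array was not well above background, the log2 fold change was 6.22 with the processed signal and 3.10 with normexp. For CLDN3, KON gave 3.54 and 2.90, and Ca9-22 gave 3.34 and 2.75. limma called 7 of the 11 tight junction probes higher under each correction. Of all 19956 probes, it called 795 higher with the processed signal and 1131 with normexp.

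**Figure D3:**
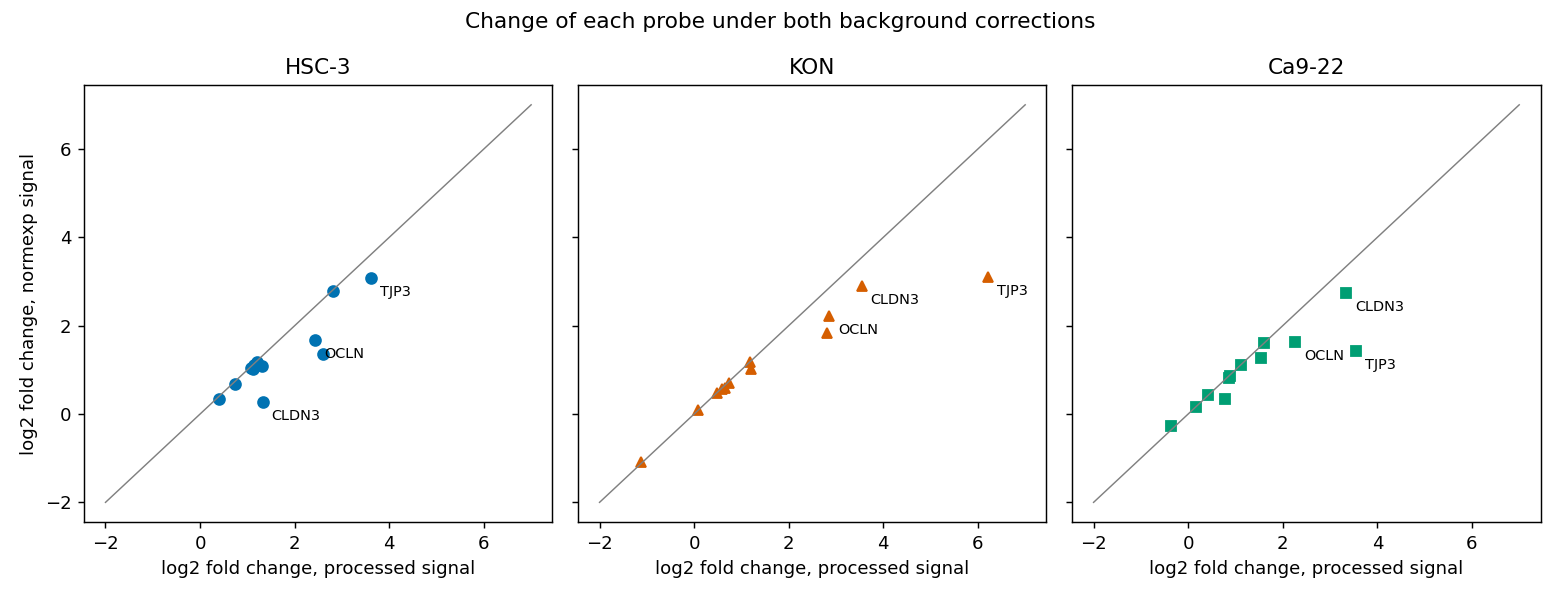
Log2 fold change of the 12 tight junction probes from the processed signal (x axis) against that after normexp background correction (y axis), in a panel for each line, with the diagonal in grey. Most points lie on the diagonal, and the widest gap is that of TJP3 in KON, 6.22 against 3.10.

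Levels of some of these genes also differed between the lines. limma's F-test between lines, which takes both arrays of a line as its spread, called 5 of the 11 probes, where 53.8% of all probes kept were called. The share among the tight junction probes is thus not above the background. CLDN1 was lower in Ca9-22 than in HSC-3 by a log2 difference of -6.10 (adjusted p = 0.00556 from limma) and 4.54 higher in KON than in Ca9-22 (adjusted p = 0.00845), while KON and HSC-3 differed by -1.56, which did not pass (adjusted p = 0.065). The order for CLDN1 was therefore HSC-3 and KON, not separated, and then Ca9-22. CLDN4 was lowest in HSC-3, with KON 2.06 above HSC-3 (adjusted p = 0.0238 from limma) and Ca9-22 1.74 above it (adjusted p = 0.0355), and no call between KON and Ca9-22 (adjusted p = 0.59). CLDN7 separated all 3 lines at both probes, HSC-3 first, Ca9-22 second, and KON last, with log2 differences of -0.75 for Ca9-22 and -1.81 for KON against HSC-3 at A_23_P164284. TJP3 is the fifth probe called, but the siCtrl arrays of both other lines than HSC-3 were dim for it, so no difference between lines is given for it. After siDLEU1-2, its signal was highest in HSC-3 and lowest in Ca9-22. For CLDN12, OCLN, TJP1, and F11R, the F-test gave adjusted p values from 0.083 to 0.337, so no order of lines is given.

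To set these genes beside the rest of the junction, 52 further genes with 78 probes were taken as other claudins, other membrane proteins, scaffolds and adaptors, and the polarity complex that positions the junction. Of these, 38 probes of 28 genes passed the filter, and limma called 8 higher and 0 lower, where 3.98% and 4.52% of all probes kept were called. With normexp, 2 were called lower, as were 1177 of all 19956. Called lower was 1 each with centering on the median, a filter on all 6 arrays, and dim values at the detection floor (1069, 1074, and 1007 of all probes). Over the 38 probes, the median of the mean log2 fold changes was 0.19, against 0.0073 over all probes kept. These lists, too, were chosen with earlier results of these data known. Of the 8, A_24_P374943 of CXADR and A_33_P3227457 of PARD6B passed the filter in Ca9-22 through the siDLEU1-2 array alone. Among the 8 are probes of CGN, AMOTL2, CXADR, and PARD6B, and those over 2-fold higher in all 3 lines include the probe of CGN and A_32_P205637 of PARD6B.

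PARD6B, an adaptor of the polarity complex with the kinases PRKCI and PRKCZ, rose at probe A_32_P205637 from 235 to 876 in HSC-3 cells, from 297 to 999 in KON cells, and from 283 to 689 in Ca9-22 cells. Its mean log2 fold change there was 1.72 ± 0.35 (SD, n = 3 lines; adjusted p = 0.0247 from limma). The other probe, A_33_P3227457, is dim, with 25.5 and 69.6 for HSC-3, 55.1 and 212 for KON, and 25.5 (not well above background) and 116 for Ca9-22, and with normexp its mean was 0.94. The other probes of the polarity complex, for CRB3, PARD3, PARD6A, PARD6G, PRKCI, and PRKCZ, were not called. CGN, which codes for cingulin, a cytoplasmic protein that links the scaffold to actin and microtubules, rose from 1256 to 2816 in HSC-3 cells, from 973 to 2426 in KON cells, and from 1677 to 6750 in Ca9-22 cells, and its log2 fold change averaged 1.58 ± 0.42 (SD, n = 3 lines; adjusted p = 0.0297 from limma).

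Most other claudins were not measurable in these lines. Of 18 further claudin genes on the array, 10 had no probe well above background on any array, and 3 (CLDN2, CLDN19, and CLDN23) had a probe that passed the filter. These 3 probes had mean log2 fold changes from -0.16 to 0.22 and none was called. A second probe of CLDN19, A_23_P379054, was well above background on 1 array, HSC-3 after siCtrl. It read 88.5 there and 4.46 after siDLEU1-2, with a log2 fold change of -1.04 with normexp, and was not tested. The other 5 claudins were well above background on some arrays only and were not tested. CLDN9 was so on both arrays of KON (24.9 and 57.4, siCtrl first) and Ca9-22 (34.3 and 98.6) at probe A_23_P351138, CLDN16 on those of HSC-3 (28.4 and 57.8), and CLDN22 (92.1 and 86.7) and CLDN24 (116 and 50.5) on those of Ca9-22. CLDN15 was so after siDLEU1-2 alone, with 45.1 in KON and 36.3 in Ca9-22. CLDN9 and CLDN16 were thus over 2-fold higher and CLDN24 over 2-fold lower in these lines, on 1 pair of arrays each. With normexp, all of these changes were under 2-fold. The log2 values were 0.44 and 0.76 for CLDN9 in KON and Ca9-22, 0.46 for CLDN16, and -0.60 for CLDN24. The scaffold list held values of both signs, with a median of -0.11 over 17 probes. In the fit to the 19956 probes, 6 of its probes were lower in all 3 lines without a call. The lowest adjusted p values from limma among these were 0.0536 for TJAP1 and 0.0692 for MICALL2.

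**Figure D4:**
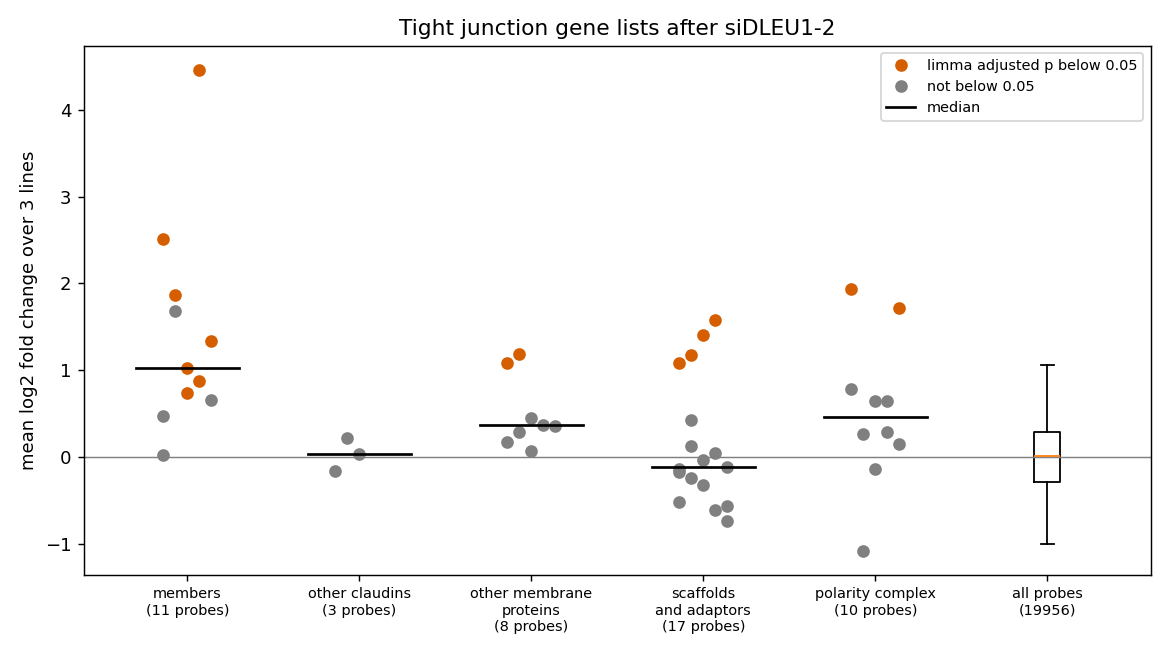
Mean log2 fold change over 3 lines (y axis) of each probe kept, for the 9 genes described here (members) and the 4 lists of other tight junction genes (x axis). Orange points have a limma adjusted p below 0.05, black lines are list medians, and the box and whiskers give the 25th and 75th and the 5th and 95th percentiles of all 19956 probes. The members have a median of 1.02, and the box of all probes reaches from -0.29 to 0.29.

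Genes with profiles like those of the tight junction genes were sought by Pearson correlation over the 6 arrays, among the probes kept with a symbol. Each correlation is over 6 points that share lines and siRNAs, so it is a description. OCLN (A_23_P92672) was closest to SEC24A (r = 0.9936), a coat protein of transport vesicles, ADAM17 (0.9911), a protease that sheds membrane proteins, and ATF1 (0.9908), a transcription factor. SEC24A itself had log2 fold changes of 1.76 to 2.31 over the lines. TJP3 was closest to ANXA2 (r = 0.9935), CHST3 (0.9894), and SSH2 (0.9890), and CLDN4 to LOC728743 (0.9941), CNO (0.9905), and RHOBTB3 (0.9898). The r values of TJP3 use its siCtrl signals in KON and Ca9-22, which were not well above background. CLDN1 was closest to SLC35D2 (r = 0.9959), ABCC3 (0.9958), and DHDDS (0.9950), and 486 other probes had an r over 0.95 with it, against 74 to 98 for CLDN4, TJP3, and OCLN.

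The promoters of the genes were examined because several of them rose together. The table of RefSeq promoters used here (GRCh38.p14) gave 14 promoters for 8 of the 9 genes, and the 250 bases before each start were searched on both strands for CACCTG, the E-box bound by repressors of the SNAI and ZEB families, and for AACCGGTT, the site of grainyhead-like factors. No matches overlapped. CACCTG was in 5 of the 14 promoters (35.7%), of CLDN7, OCLN, TJP1, and TJP3, and in 17.5% of 35116 promoters of the table. AACCGGTT was in 0 of the 14 and in 0.117% of all. A start of CLDN7 had 4 matches, which 0.122% of all promoters reach. The 30 bases around the matches are shown, in the direction of the gene, with the E-box or its complement in capitals.
CLDN7, chr17:7262635-7262664, minus strand: tttcttcctcctCACCTGggcaaggagggg
CLDN7, chr17:7262596-7262625, minus strand: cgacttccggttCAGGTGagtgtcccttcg
CLDN7, chr17:7262481-7262510, minus strand: cctacatatactCAGGTGcgcccCACCTGt
OCLN, chr5:69492502-69492531, plus strand: ccatccgagtttCAGGTGaattggtcaccg
OCLN, chr5:69492645-69492674, plus strand: tctaggacgcagCAGGTGggactcgcggcg
TJP1, chr15:29969120-29969149, minus strand: gcggccggcgcgCAGGTGgcccggcctcgc
TJP3, chr19:3721707-3721736, plus strand: gagacctggaggaggaagaggggCAGGTGc
CLDN4 and CLDN12, which also rose, had no match in this window, nor had CLDN1 and CLDN3. A match is a match of letters, and binding was not measured here.

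Markers of cell types moved with the siRNA as well. Of 6 markers of squamous epithelium, 5 were well above background on all 6 arrays, and limma called KRT6A, SFN, and TP63 lower and 0 higher. KRT5, KRT14, and KRT17 were not called, with mean log2 fold changes of -1.14, 0.008, and 0.14, and KRT14 and KRT17 were over 2-fold higher in Ca9-22 (1.47 and 1.34 on the log2 scale). The summed signal of the list, in which the brightest probes weigh most, was 96353 to 245021 after siCtrl and 62533 to 122382 after siDLEU1-2. Of 4 markers of simple epithelium, all were well above background on all arrays, and KRT8 and KRT18 were called higher. KRT19 and EPCAM were not called, with mean log2 fold changes of 0.87 and 1.09. The summed signal of this list was 60189 to 234104 after siCtrl and 134881 to 353290 after siDLEU1-2. Of all probes kept, 3.98% were called higher and 4.52% lower. The samples were cultures of established OSCC lines, so the lists describe RNA of these cells and not a mixture of tissues. More cells with a given RNA and more of it per cell cannot be told apart. Of 4 fibroblast markers, COL1A1 was called higher, with a summed signal of 152 to 220 and 396 to 579, while COL1A2 and PDGFRA were well above background on 0 arrays. The endothelial list (52.0 to 178 and 92.0 to 418, with CLDN5 well above background on no array) and the leukocyte list (154 to 10480 and 222 to 12984, its highest values those of CD14 in HSC-3) had 0 markers called, but only 2 of 4 endothelial markers (CDH5 and VWF) and 1 of 4 leukocyte markers (CD14) passed the filter and were tested. Of the fibroblast list, COL1A1 was the only marker tested. The part of these shifts in the changes of the tight junction genes was not tested.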

How the data were processed

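Total RNA (100 ng per array) from 3 OSCC lines after siCtrl or siDLEU1-2 was labeled and hybridized by the authors to Agilent arrays. The deposited files come from Feature Extraction 10.7.3.1, and their processed signal is an intensity from which that software had subtracted the background. The deposited series table has these intensity values, rounded (largest difference 0.497%). Slide and scan were shared by all 6 arrays. The paper's methods name no filter on dim probes.

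Here log2 signals were set relative to each array's 75th percentile, control and outlier spots were left out, and spots of a probe were averaged. Well above background was required of at least 50% of a probe's spots. limma 3.58.1 in R 4.3.3 was fitted over 19956 probes and was tested on simulated data. The line is the block, since a pair of arrays comes from 1 line, and deviations within pairs correlated at 0.81 to 0.83. An exact sign-flip test over 3 lines was not used, since it cannot pass the threshold. The number of arrays limits the precision.

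The genes and lists were chosen with earlier results of these data known. Named were all 9 genes with every probe, other tight junction genes called and over 2-fold higher or lower in all 3 lines, DLEU1, the marker lists, and the 3 genes most like each of TJP3, OCLN, CLDN4, and CLDN1. A called gene of these lists is not reported here. AMOTL2, CXADR, SEC24A, and probes not called or not tested were named after their values were seen. All 61 genes listed had a probe, with INADL, MPP5, and CSDA under these older names in the files. Alternatives were quantile normalization, other centerings, normexp (offset 50), the series table, other filters, a floor at the detection limit, the methods' t-test, a fit without the block, gene means over probes, and the removal of each line. The filter on 3 of 6 arrays was added after the data were seen. Probe coordinates are on hg19 and promoters on GRCh38.p14 (RefSeq). Exons and protein sequences were not used here.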

Additional observations from a re-analysis of the deposited data

Results flagged for a closer look

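Of the 11 tight junction probes tested, 2 moved in opposite directions between cell lines, and with 1 array for each line and siRNA this difference was not tested. The log2 fold changes of CLDN1 covered a range of 1.89, from -1.12 in KON to 0.78 in Ca9-22. Those of A_24_P102053 of OCLN covered 3.17, from -0.37 in Ca9-22 to 2.80 in KON.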

How the results depend on the processing

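Over all alternatives tried, 0 of the probes of the 9 genes were called lower and 0 were over 2-fold lower in all 3 lines, and 3 to 5 were over 2-fold higher. In place of 7, limma called 4 probes higher with centering on the median, and 3 of 12 with the filter on 3 of 6 arrays. It called 0 of 14 with no filter on dim probes (9 at an unadjusted p below 0.05, as were 6816 of 50544 probes), and with each line left out 0 to 2. For all probes, the counts in place of 1697 were 844 with that filter, 0 with no filter, and 0 to 244 with a line left out. For the other tight junction probes, they were, in place of 8 probes of 5 genes, 5 genes with gene means over probes, 0 with no filter, and 0 to 1 with a line left out. Without the replicate block and by the methods' t-test, 0 probes were called in each of these (1357 and 1373 of all probes at an unadjusted p below 0.05). The probes that differ between lines were 3 to 4 in place of 5 with a line left out. The mean log2 fold change of CLDN1, which was not called, turned to -0.02 with quantile normalization, -0.05 and -0.0038 with the other centerings, -0.14 with normexp, and lay between -0.36 and 0.59 with a line left out. No other mean of a tight junction probe changed its sign. The cause of these shifts was not tested. Signal over background limits TJP3 on the siCtrl arrays of KON and Ca9-22, and CLDN3 on both arrays of HSC-3.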
